A study of Mus musculus with 12 samples.

Results

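Map3k10 and 9 of its relatives encode MAP kinase kinase kinases (MAP3Ks), the enzymes at the top of the 3-tier kinase cascades that end in the MAP kinases. The 10 genes (Map3k1, Map3k2, Map3k3, Map3k4, Map3k5, Map3k9, Map3k10, Map3k11, Map3k12 and Map3k13) were taken by symbol from the 20504 genes of the coding sequence (CDS) count table, and all 10 were found there and among the 23352 genes of the exon table. Map3k10 was selected on its translation efficiency (TE) in the mice that had not received the drug, where it was the lowest of the genes above a count minimum, so its TE in those mice is a description and carries no test. TE is the ratio of footprints to RNA-Seq reads on the CDS of a gene, each normalized for library size.

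The data are 12 libraries from the brains of 6 adult mice that all carry Camk2a-driven Cre recombinase and the RiboTag allele, an HA tag on ribosomal protein Rpl22 that Cre switches on in Camk2a-expressing excitatory neurons. Mice A and B are labelled untreated and received vehicle according to the study's methods. Mice C and D received a single oral dose of 100 mg/kg AZD-8055, an ATP-competitive inhibitor of the kinase mTOR, and were sacrificed 1 h later. Each of these 4 mice gave a ligation-free ribosome profiling library and an RNA-Seq library from the same homogenate, that is, from all cell types of the tissue. Mice E and F are labelled untreated, and each gave an RNA-Seq library of homogenate (input) and one of HA-immunoprecipitated polysomes (IP).

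MAP3Ks phosphorylate MAP2Ks, which phosphorylate MAP kinases such as JNK and p38. Map3k9, Map3k10 and Map3k11 are the mixed-lineage kinases, which bind the GTPases Rac1 and Cdc42 and activate JNK. Map3k12 (DLK) and Map3k13 (LZK) are their closest relatives, and are known in neurons for signalling axon injury to the nucleus. Map3k1 to Map3k4 are the MEKK kinases, and Map3k5 (ASK1) responds to oxidative stress. In neurons these cascades act in axon growth and degeneration, in apoptosis and in plasticity.

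Footprint libraries held between 3503873 (mouse C) and 9259938 (mouse A) reads on CDS, and RNA-Seq libraries between 9309496 and 15585831. With 2 mice per group, adjusted p-values rest on the spread between single brains. Samples of 1 group differed by more than counting error in all 6 groups. Since no CDS lengths were used, levels were compared between genes only as ratios of libraries within a gene. In homogenate, fewer cells of a type and less RNA per cell cannot be told apart.

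The RefSeq start sites of members were examined because mTOR acts most strongly on mRNAs that begin with a run of pyrimidines, the TOP motif. RefSeq (GRCm38.p6, the assembly of the mm10 build named in the submitters' processing notes) gave a promoter for 9 of the 10 members, 10 in all. The windows below span 30 bases on the coding strand, with the bases from the annotated start onward in capitals, for Map3k10, the other mixed-lineage kinases and Map3k3, whose footprints had the most negative estimate after the drug.
Map3k10: gagccccggcggggaGAGGGACTTAGGGGG
Map3k9: cgcacggggcggggaGGGGAGGGAGCGGCC
Map3k11: agacacaggacaagtGATGAACTAACGAAG
Map3k3: cgcgcccagcggtttGTTTTTCGGAGCGTT

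These lie at chr7:27674567-27674596 on the minus strand (Map3k10), chr12:81781156-81781185 on the minus strand (Map3k9), chr19:5689116-5689145 on the plus strand (Map3k11) and chr11:106084572-106084601 on the plus strand (Map3k3). None of the 4 begins with a C. The starts used for Map3k10 (27674581) and Map3k11 (5689131) lie inside their RefSeq gene spans, which begin upstream at 27674630 and 5688411. The bases at those outer ends were not examined. Over the promoters of members, 0 of 10 had a C followed by 4 bases that were each C or T at the annotated start, read on the coding strand only, against 2.51% of 32851 RefSeq promoters. No match says only that these letters are not at this position of the annotation. The Map3k10 gene spans chr7:27656375-27674630 and overlaps no other RefSeq gene. Ttc9b ends 167 bases before it and Zfp607b starts 30 bases after it.

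Map3k10 mRNA was abundant in RNA-Seq and carried few footprints. In the order of mice A to D, RNA-Seq gave 3359, 3535, 3813 and 3982 counts on CDS. The footprint libraries of the same brains gave 115, 54, 58 and 86 counts. Every footprint count was thus below every RNA-Seq count by more than an order of magnitude. After normalization the log2 TE was -4.72 in mouse A and -4.84 in mouse B (mean -4.78 ± 0.09, SD, n = 2), or 3.79% and 3.48% of the TE of a gene with equal normalized footprint and RNA-Seq counts. This was the lowest value of the 10882 genes that reached 75 footprints and 75 RNA-Seq reads over mice A and B, whose median was 0.02. That rank is the value that chose the gene. In single mice, with a minimum of 37 counts per library, Map3k10 was the fifth-lowest of 11227 genes in mouse A and the lowest of 10228 genes in mouse B.

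The genes next above Map3k10 in the vehicle-treated mice were Zfp523, a zinc-finger gene, at a log2 TE of -4.77, Fam193b at -4.60, Lrrc45 at -4.47, Map3k15 at -4.21 and Arhgef25 at -4.05. Zfp523 (mouse A -4.30, mouse B -5.25), Fam193b (-4.74 and -4.46) and Lrrc45 (-4.91 and -4.02) had ranges over both mice that overlapped that of Map3k10, and Map3k15 and Arhgef25 did not. The order of Map3k10 and the 3 genes next to it is therefore not resolved by 2 mice.

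The AZD-8055-treated mice did not enter the choice of Map3k10 and give the same measure in other animals. Its log2 TE there was -4.43 in mouse C and -4.34 in mouse D (mean -4.38 ± 0.06, SD, n = 2). It was the lowest of 9906 genes over both mice, of 9403 genes in mouse C and of 10370 genes in mouse D. In the test of footprints against RNA-Seq within these mice, Map3k10 was lower by a log2 ratio of -4.32 (SE 0.10, adjusted p = 8.62e-11, edgeR quasi-likelihood test with Benjamini-Hochberg adjustment). Of 11700 genes tested, 35.7% were called lower and 34.3% were called higher in footprints. This test sets a minimum on the mean of both kinds of library and none on footprints alone, and 37 genes had a lower fitted ratio than Map3k10 in it, so its place as the lowest gene holds only above the footprint minimum.

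Of the 10 MAP3Ks, 6 were called lower and 2 were called higher in that test, and the median log2 ratio was -0.67 against -0.02 over all genes tested. The other 5 called lower were Map3k11 (-2.56, SE 0.18), Map3k3 (-2.21, SE 0.18), Map3k12 (-1.45, SE 0.08), Map3k9 (-0.73, SE 0.15) and Map3k4 (-0.60, SE 0.12). Map3k2 (2.06, SE 0.20) and Map3k13 (1.28, SE 0.17) were called higher. Map3k1 (-0.14, SE 0.22) and Map3k5 (0.05, SE 0.11) did not pass the test. Map3k10 lay -6.38 from Map3k2 on the log2 scale, the full width of the family.

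**Figure D1:**
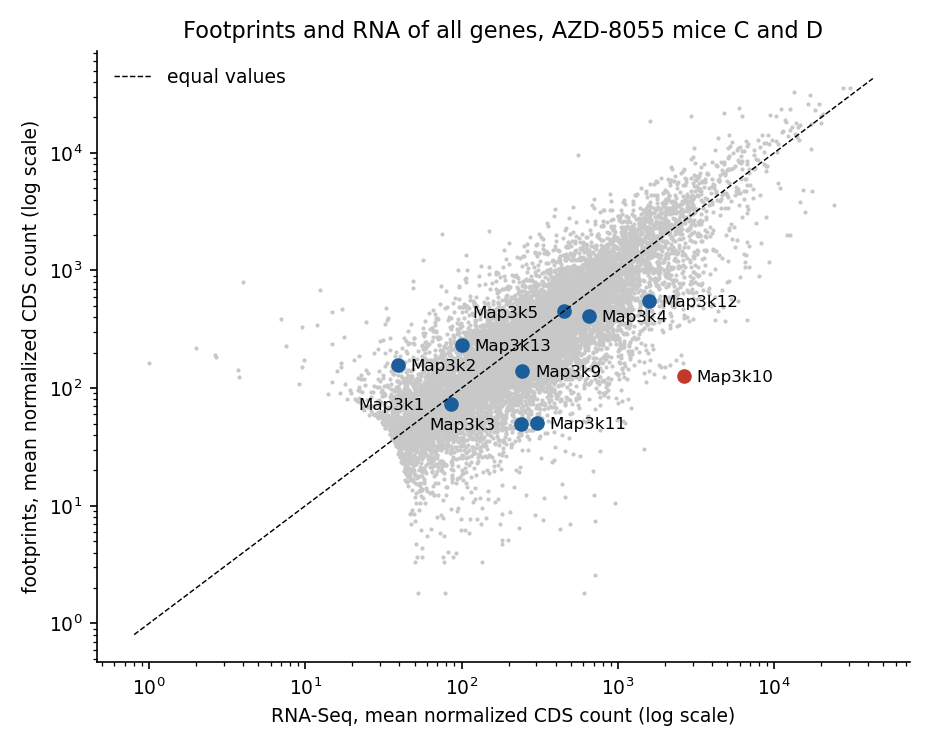
Mean normalized CDS counts of footprints (vertical axis, log scale) against RNA-Seq (horizontal axis, log scale) in AZD-8055-treated mice C and D, with 1 grey point per gene, Map3k10 in red, its relatives in blue and a dashed line of equal values. Map3k10 lies farthest under the line of the 10 MAP3Ks, and Map3k2 and Map3k13 lie above it.

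The mixed-lineage kinases Map3k9, Map3k10 and Map3k11 had log2 TEs of -0.94 ± 0.12, -4.78 ± 0.09 and -2.72 ± 0.16 in the vehicle-treated mice (SD, n = 2). Map3k11, the relative with the nearest TE, was the 109th-lowest of the 10882 genes. Its footprints numbered 47, 30, 28 and 28 in mice A to D against 370, 416, 430 and 472 RNA-Seq counts, so its TE in mice C and D rested on fewer than 75 footprints. The log2 TE of Map3k10 minus that of Map3k11 was -1.89, -2.24, -2.10 and -1.46 in mice A to D. The sign in mice A and B was set by the choice of Map3k10. In mice C and D, which did not enter that choice, the difference was negative in both and averaged -1.78 ± 0.45 (SD, n = 2).

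Map3k12 and Map3k13, the injury-signalling pair, lay on opposite sides of the median gene. Map3k12 had footprint counts of 712, 298, 256 and 375 in mice A to D and RNA-Seq counts of 2074, 2167, 2222 and 2447. Its log2 TE was -1.39 and -1.67 in mice A and B and -1.51 in both mice C and D. Map3k13 had footprint counts of 257, 135, 104 and 164 and RNA-Seq counts of 107, 139, 127 and 170, and its log2 TE lay between 1.14 and 1.41 in the 4 mice. Relative to Map3k12, the member nearest to it in RNA-Seq counts, Map3k10 was lower by a log2 TE difference of -2.92 in mouse C and -2.83 in mouse D.

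The MEKK kinases spread across the scale. Map3k2 had the highest log2 TE of the family, at 1.82 ± 0.32 in the vehicle-treated mice and 2.02 ± 0.06 in the AZD-8055-treated mice, from RNA-Seq counts of 53 to 71 on CDS. Map3k1 (-0.24 ± 0.17) and Map3k5 (0.03 ± 0.24), the stress-responsive ASK1, lay near the median gene in the vehicle-treated mice. Map3k4 stood at -0.86 ± 0.04 and Map3k3 at -1.42 ± 0.30.

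In order of vehicle log2 TE from the lowest, the family ran Map3k10, Map3k11, Map3k12, Map3k3, Map3k9, Map3k4, Map3k1, Map3k5, Map3k13 and Map3k2. The ranges over mice A and B overlapped for Map3k12 and Map3k3, for Map3k9 and Map3k4, and for Map3k1 and Map3k5, and these neighbours did not differ beyond their spread. The other neighbours did not overlap, and the step from Map3k10 to Map3k11 was the largest between neighbours. Map3k10 was chosen as the lowest in mice A and B, so its place and that step are a description and carry no test. In mice C and D the values of Map3k3 (-2.23 and -2.28) lay just above those of Map3k11 (-2.33 and -2.88).

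**Figure D2:**
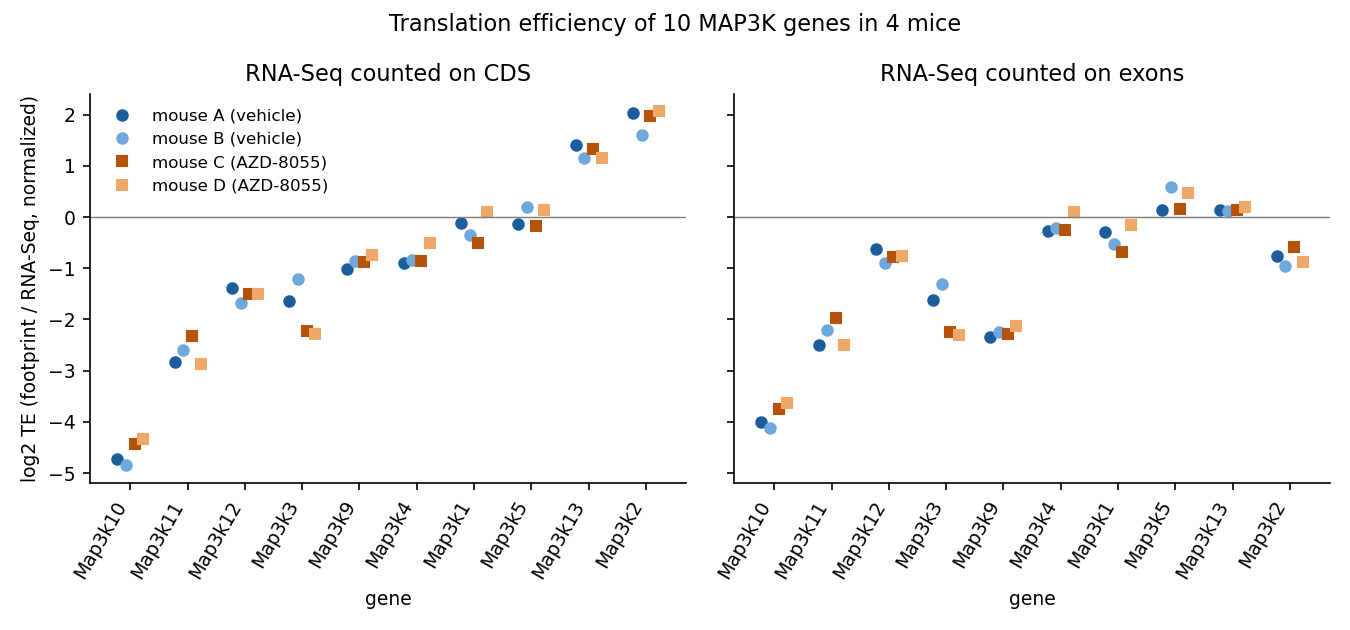
Log2 TE (vertical axis) of the 10 MAP3K genes, ordered by their mean in vehicle-treated mice, with 1 point per mouse (circles, vehicle; squares, AZD-8055). The left panel divides footprints by RNA-Seq counted on CDS and the right panel by RNA-Seq counted on exons; Map3k10 is lowest in the 4 mice in both, while Map3k2 moves from the highest place to below 0.

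The RNA-Seq denominator was examined because members differed in how much of their RNA-Seq signal fell on CDS. CDS counts of Map3k10 were 95.3% of its exon counts in the vehicle-treated mice and 95.2% in input. Map3k12 reached 98.6% in the vehicle-treated mice, Map3k4 88.8%, Map3k11 74.3% and Map3k5 72.5%. The share was 56.2% for Map3k3, 51.2% for Map3k1, 26.2% for Map3k13, 22.5% for Map3k9 and 9.08% for Map3k2. The median over all genes was 63.5% in mouse A and 63.7% in mouse B, so Map3k10 and Map3k12 stood above it and Map3k2, Map3k9 and Map3k13 well below it.

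With exon counts as denominator, the log2 TE of Map3k10 was -4.06 ± 0.09 in the vehicle-treated mice and -3.68 ± 0.08 in the AZD-8055-treated mice (SD, n = 2). It then ranked 9 from the lowest of 10972 genes and 11 from the lowest of 9925 genes, and remained the lowest of the 10 members. In the vehicle-treated mice Map3k9 moved to -2.30, Map3k2 to -0.86 and Map3k13 from 1.28 to 0.13, so that neither Map3k2 nor Map3k13 then stood high on the scale. The distance from Map3k10 to Map3k11, still the nearest relative, was -1.71. In the AZD-8055-treated mice Map3k13 moved from 1.23 to 0.16, Map3k2 from 2.02 to -0.74, and the nearest relative was then Map3k3, at -2.27.

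**Figure D3:**
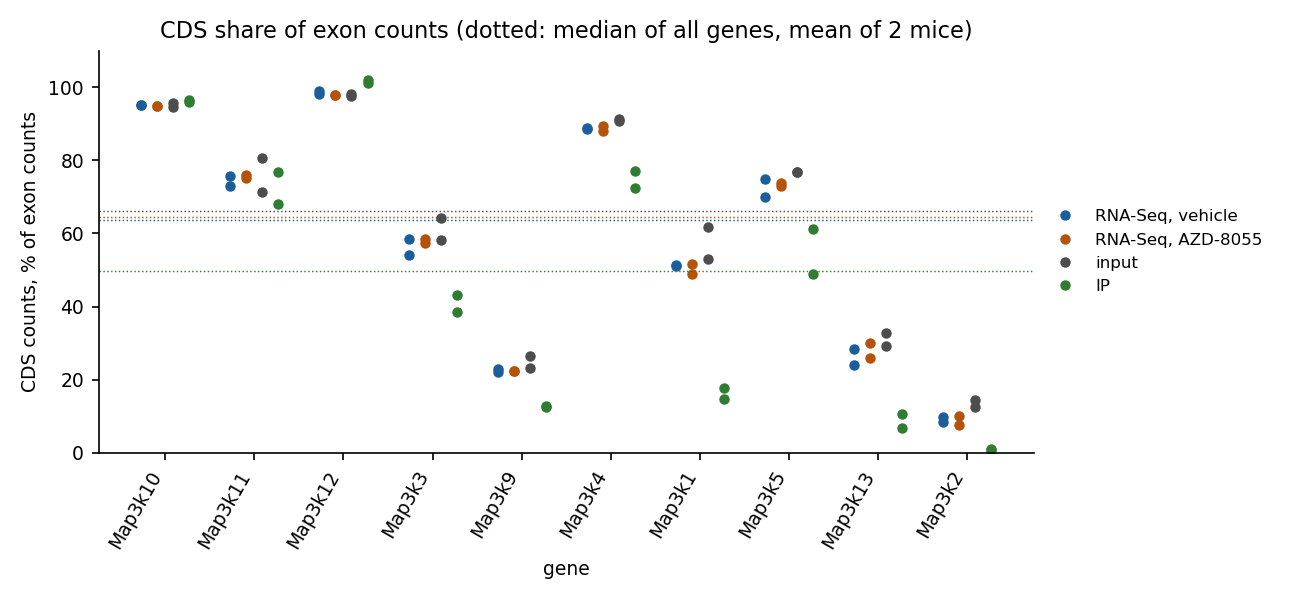
CDS counts as a percentage of exon counts (vertical axis) for the 10 MAP3K genes in the 8 RNA-Seq libraries, 1 point per library, coloured by group, with dotted lines at the median of all genes in each group. Map3k10 and Map3k12 sit above 90% in every library, and Map3k2 lies below 15% in every library.

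Across the members, log2 CDS share and log2 TE in the vehicle-treated mice had a Pearson r of -0.70 (n = 10), and across 10873 genes r was -0.41. Both quantities hold the CDS count of the same RNA-Seq libraries, and genes are not independent replicates. With the exon denominator, r was -0.15 across the members and 0.38 across all genes.

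In RefSeq, 3 members overlap other coding genes. Map3k3 overlaps Limd2 over 403 bases, Map3k11 overlaps Pcnx3 over 593 bases, and Map3k12 overlaps Pcbp2 over 2422 bases and Tarbp2 over 928 bases. Whether the counting used strand is not given in the sources used here, so reads from these stretches cannot be assigned with certainty. Map3k15, a relative of Map3k5 outside the 10 genes, had very different values in both tables. It had 1112 CDS counts in the RNA-Seq library of mouse A but 54 exon counts, and overlaps Pdha1 over 1128 bases. Its log2 TE was -4.21 with CDS counts and 0.68 with exon counts, and the part of the overlap in that difference was not tested.

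The effect of AZD-8055 addresses whether mTOR inhibition changed the translation of these kinases. No member passed the test of a change in TE, at 0 of 10 called against 0.865% of 11797 genes. At an unadjusted p under 0.05 there were 2 members, Map3k3 and Map3k10, both with edgeR and with DESeq2, which also called 0 members after adjustment. Over all genes tested, 6.75% were at such a p with edgeR and 3.41% with DESeq2. DESeq2 gave no adjusted p-value for some members, among them Map3k1 and Map3k2, so it could not call them. The members' median log2 change in TE was 0.10 against -0.01 over all genes tested.

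Normalized footprint counts of Map3k10, scaled over the 12 libraries, were 106 and 96.2 in the vehicle-treated mice A and B and 141 and 146 in the AZD-8055-treated mice C and D. Both AZD-8055-treated mice lay above both vehicle-treated mice, but the gene was chosen for its low TE in the latter, which favours a rise against them. The share of all genes with such a separation was not computed. The log2 change was 0.50 in footprints (SE 0.18, adjusted p = 0.306), 0.08 in RNA (SE 0.06, adjusted p = 0.790) and 0.40 in TE (SE 0.15, adjusted p = 0.543, edgeR with Benjamini-Hochberg adjustment over all genes). None of the 3 changes passed the threshold of 0.05.

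Map3k3 had normalized footprint counts of 89.5 and 107 in mice A and B and of 60.6 and 52.7 in mice C and D, from 25 and 31 reads in the latter. The groups did not overlap, but how many of all genes separate in this way was not computed here either. The log2 change of Map3k3 was -0.78 in footprints (SE 0.25, adjusted p = 0.251, edgeR with Benjamini-Hochberg adjustment). In TE the change was -0.81 (SE 0.25, adjusted p = 0.346, edgeR with Benjamini-Hochberg adjustment). Neither change was called, so the separation is a description and not evidence of a drop. RNA of Map3k3 differed by 0.02 (SE 0.11).

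The other 8 members had log2 TE changes between -0.03 (Map3k13) and 0.22 (Map3k4), with SEs from 0.12 to 0.31. Footprints were tested for 9 members, since Map3k11 fell under the mean of 37 counts, and 0 of 9 were called against 1.03% of 10695 genes. At an unadjusted p under 0.05 the footprint test had Map3k3 and Map3k10 with edgeR and 0 members with DESeq2, beside 12.8% and 5.39% of all genes. RNA-Seq gave 0 of 10 called against 0.148% of 12182 genes, and 0 members at an unadjusted p under 0.05 with either tool, beside 8.24% of all genes with edgeR and 3.16% with DESeq2. The SEs of Map3k1, Map3k2 and Map3k11 in TE (0.31, 0.28 and 0.27) were as large as the changes estimated for any member but Map3k3 and Map3k10. TE changes of -0.81 in Map3k3 (SE 0.25) and 0.40 in Map3k10 (SE 0.15) were not called either. Changes well above 1 SE could thus be missed in any member, and the lack of calls does not show that the members were unchanged.

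**Figure D4:**
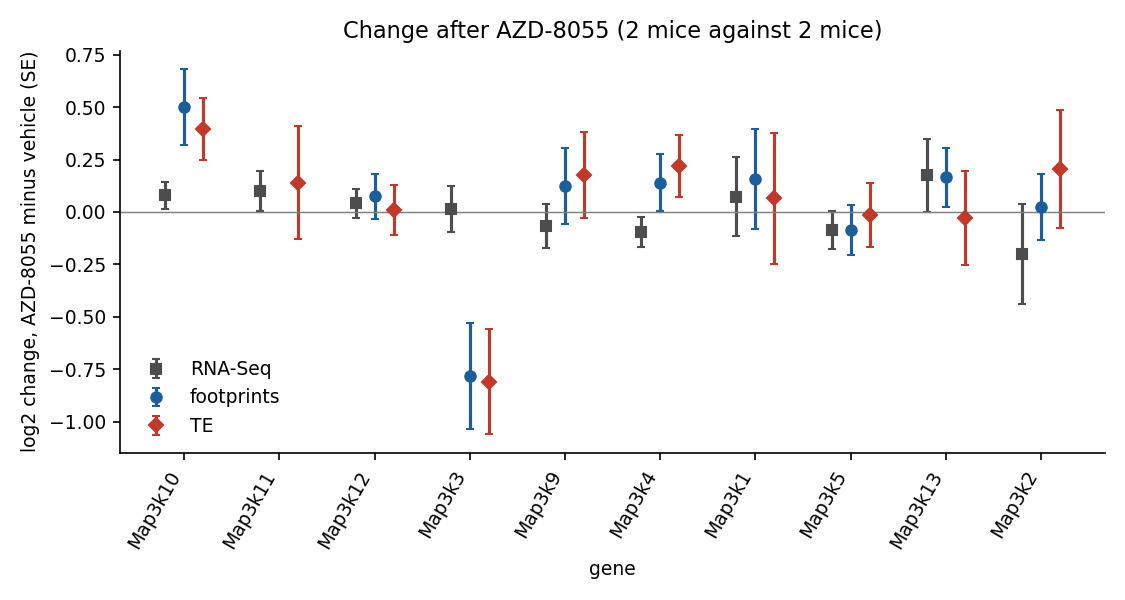
Log2 change after AZD-8055 (vertical axis, 2 treated minus 2 vehicle-treated mice) of RNA-Seq (grey squares), footprints (blue circles) and TE (red diamonds) for the 10 MAP3K genes, with bars of 1 SE from edgeR. Map3k10 lies at 0.50 in footprints and Map3k3 at -0.78, neither past the adjusted threshold, and Map3k11 has no footprint point because it was below the count minimum.

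The RiboTag IP addresses which mRNAs are on ribosomes of Camk2a-expressing neurons. The listed cell type markers followed the label of the IP. On exon counts, 8 of 8 excitatory neuron markers exceeded input in the IPs of both mice, and 0 of 6 inhibitory neuron, 0 of 6 astrocyte, 0 of 6 oligodendrocyte, 0 of 6 microglial and 0 of 6 endothelial markers were. On CDS counts, 6 of 8 excitatory markers did, and the summed level of the 6 astrocyte markers was 1807 and 1736 CPM in input and 179.9 and 209 in IP. The IP libraries also had a lower CDS share of exon counts, with a median over genes of 51.5% and 47.9% in IP against 66.7% and 65.5% in input, so each member is given on both counts.

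Map3k10 mRNA was somewhat higher in IP than in input when counted on CDS. Mouse E had 4303 CDS counts in input and 3738 in IP, and mouse F had 4924 and 3407, from smaller IP libraries. The normalized log2 ratios were 0.78 and 0.70. The fitted change was 0.61 (SE 0.12, adjusted p = 0.00132, edgeR with Benjamini-Hochberg adjustment). On exon counts the ratios were 0.32 and 0.18, and the fitted change of 0.14 (SE 0.14, adjusted p = 0.398) did not pass the test. These fits did not pair the IP with the input of the same mouse. With exon counts and the mouse as a replicate block, an alternative chosen after seeing the data, the change was 0.13 (SE 0.07). It was not called (adjusted p = 0.0651, edgeR). CDS share was 96.3% in IP and 95.2% in input for this gene, while the median over all genes was lower in IP, and the part of that shift in the CDS result was not tested.

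Map3k12 behaved likewise. Its log2 IP-to-input ratios were 0.54 and 0.51 on CDS, with a fitted change of 0.40 (SE 0.11, adjusted p = 0.00824, edgeR), and 0.06 and -0.07 on exons, with a fitted change of -0.12 (SE 0.10, adjusted p = 0.323, edgeR). Map3k11 and Map3k5 were not called on either count. Map3k11 went from 0.14 (SE 0.16) on CDS to -0.25 (SE 0.12) on exons, and Map3k5 stood at 0.24 (SE 0.14) and 0.27 (SE 0.10). With exon counts and the mouse as a replicate block, Map3k5 was called higher (adjusted p = 0.00350, edgeR) and Map3k11 was called lower (adjusted p = 0.0450, edgeR).

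In all, 2 members were called higher and 6 were called lower on CDS, against 36.5% and 39.0% of 12211 genes. On exons 0 were called higher and 6 were called lower, against 33.7% and 35.7% of 13254 genes. The same 6 genes were called lower on both counts. The members' median log2 change was -0.72 on CDS and -0.56 on exons, and the medians over all genes were -0.07 and -0.03.

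Map3k1 was lower in IP by -3.31 (SE 0.28) on CDS and -1.97 (SE 0.18) on exons. Map3k13 was lower by -2.75 (SE 0.34) and -1.40 (SE 0.20), and Map3k3 by -1.41 (SE 0.18) and -1.30 (SE 0.15). Map3k9 was lower by -1.04 (SE 0.14) on CDS and -0.54 (SE 0.09) on exons, and Map3k4 by -0.41 (SE 0.13) and -0.58 (SE 0.16). The Map3k4 call on CDS was lost with DESeq2 (adjusted p = 0.0611).

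Map3k2 had the largest distance between both counts. On CDS, mouse E had 140 counts in input against 3 in IP and mouse F had 161 against 4, an IP-to-input ratio of 0.0425 in mouse E (95% exact binomial interval 0.00865 to 0.127, counting error only) and 0.0583 in mouse F (0.0157 to 0.152). On exons, mouse E had 964 counts against 389 and mouse F had 1291 against 399. The fitted change was -4.42 (SE 0.37) on CDS and -0.99 (SE 0.11) on exons. CDS made up 13.5% of its exon counts in input and 0.887% in IP.

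**Figure D5:**
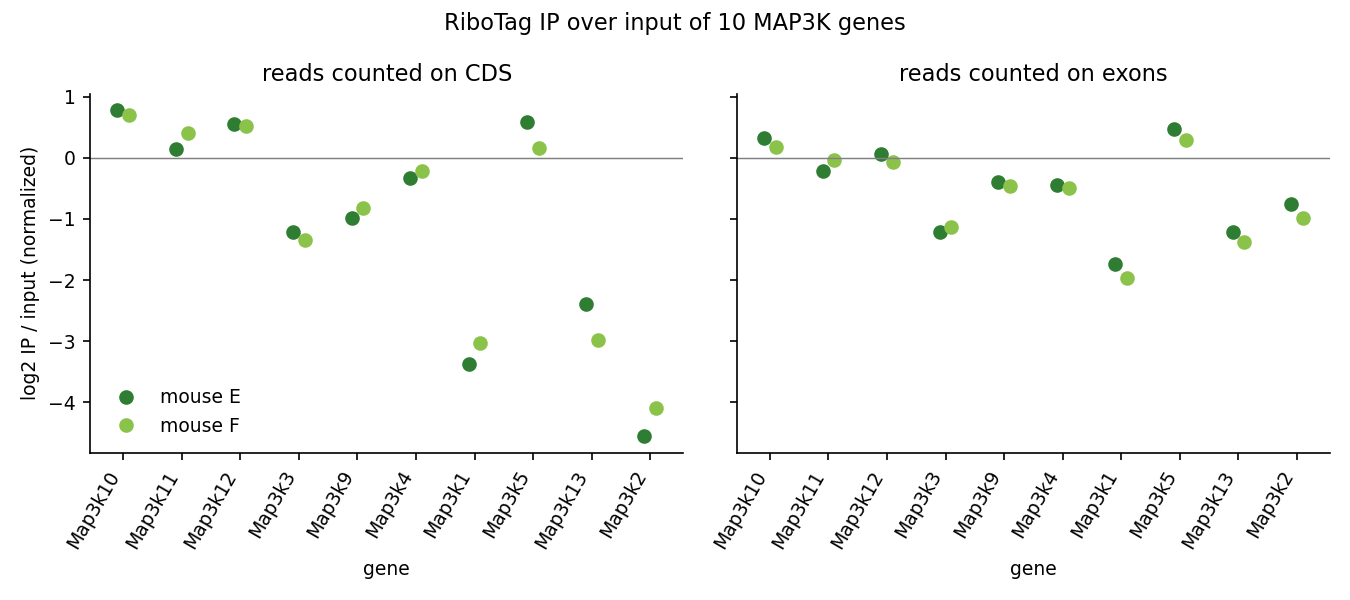
Log2 ratio of RiboTag IP to input (vertical axis) of the 10 MAP3K genes in mice E and F, 1 point per mouse, with reads counted on CDS (left) and on exons (right). Map3k10 and Map3k12 lie above 0 in both mice on CDS and near 0 on exons, and Map3k2 rises from below -4 to about -0.87.

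The genes whose normalized CDS counts followed Map3k10 most closely over the 12 libraries were St6galnac6, a sialyltransferase (Pearson r = 0.999), Tesk1, a kinase (0.998), Brsk1, a neuronal polarity kinase (0.998), Grik5, a kainate receptor subunit (0.998), and Scap, the escort protein of SREBP (0.998). Footprint and RNA-Seq libraries enter this measure together, so genes with a low TE score high on it. The vehicle log2 TEs of these genes were -3.28, -3.03, -3.24, -2.83 and -1.66. Of the relatives, Map3k12 (r = 0.988) and Map3k11 (r = 0.979) came closest to Map3k10, and Map3k2 (r = -0.75) and Map3k13 (r = -0.74) were farthest from it.

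The rest of the cascade was read from lists of upstream kinases, MAP2Ks, MAP kinases, scaffolds and targets, 84 genes in all, of which 80 were in the CDS table. In the vehicle-treated mice the median log2 TE was -0.90 over the 10 members, -0.51 over 10 other MAP3Ks, -0.84 over 6 MAP4Ks, -0.14 over 7 MAP2Ks, -0.94 over 11 MAP kinases, -0.18 over 18 scaffolds and regulators and 0.06 over 18 targets. The lowest values in these lists other than Map3k15 were -2.66 for Tab2, an adaptor of the MAP3K TAK1, -2.42 for Map4k2, -2.40 for Mapk6 and -2.20 for Mapkapk5. Each lay above Map3k10 by more than 2 on the log2 scale, in the mice on which Map3k10 was chosen.

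In the AZD-8055-treated mice, 22 of 72 genes of these lists tested were called higher and 36 were called lower in footprints than in RNA-Seq, beside 34.3% and 35.7% of all genes. Mef2c, a transcription factor that p38 activates, was higher by 2.58 (SE 0.08), the MAP3K Taok1 by 2.50 (SE 0.12), the p38 activator Map2k6 by 2.37 (SE 0.19) and Braf by 2.13 (SE 0.11). These ratios rest on RNA-Seq counted on CDS. In the input of mouse E, CDS and exon counts were 2409 and 12245 for Mef2c and 643 and 3901 for Taok1. They were 122 and 241 for Map2k6 and 480 and 3466 for Braf. The ratios were not tested with the exon denominator. Map3k15 was lower by -4.06 (SE 0.14, on CDS counts that exceed its exon counts), Tab2 by -2.72 (SE 0.14), Mapk7 by -2.51 (SE 0.20), Mapkapk5 by -2.40 (SE 0.14) and Map4k2 by -2.29 (SE 0.11).

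After AZD-8055, 0 of 72 cascade genes were called changed in TE, against 0.865% of all genes tested. RNA of the phosphatases Dusp1 (0.54, SE 0.09, adjusted p = 0.0306) and Dusp6 (0.49, SE 0.09, adjusted p = 0.0291), which dephosphorylate MAP kinases, was higher by edgeR with Benjamini-Hochberg adjustment, as were footprints of Dusp6 (0.61, SE 0.09, adjusted p = 0.00512). These were 2 of 74 and 1 of 67 cascade genes tested, beside 0.148% of all genes in RNA and 1.03% in footprints.

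In the RiboTag IP, 26 of 73 cascade genes were called higher and 27 were called lower on CDS, and 31 and 17 of 75 on exons. Over all genes tested, 36.5% were called higher and 39.0% lower on CDS, and 33.7% and 35.7% on exons. Jund was higher by 2.06 on CDS and 1.52 on exons, the redox regulator Txn1 by 1.95 and 1.49, and Gadd45b by 1.70 and 1.35. Junb was higher by 1.60 and 1.27. Taok1 was lower by -3.05 on CDS but stood at -0.18 on exons (adjusted p = 0.190, edgeR), where it was not called, and Braf was lower by -2.14 on CDS and by only -0.27 on exons. Traf6 was lower by -2.29 and -1.09, Dusp16 by -2.26 and -1.12, and the JNK scaffold Spag9 by -2.15 and -0.81. Gadd45a was higher by 1.57 on CDS and 1.48 on exons, and Gadd45g by 1.59 and 1.39. Mef2a was lower by -1.61 and -1.67, Rps6ka3 by -0.99 and -1.44, Map4k2 by -0.96 and -1.42, and Map3k19 by -0.90 and -1.36. Rps6ka3 and Map3k19 had the same counts on CDS and on exons, so both values of each rest on the same reads under different scaling. Counts of Map4k2 were nearly the same, with 478 on CDS and 479 on exons in the IP of mouse E. Map3k15 was higher by 1.79 on CDS and lower by -1.67 on exons.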

How the data were processed

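The authors deposited whole-number counts of uniquely mapped reads per gene, without normalization, on CDS for 12 libraries and on exons for 8 RNA-Seq libraries. For footprints they trimmed reads, clipped poly(A), used Bowtie2 to drop rRNA reads, TopHat2 to align the rest and HTSeq to count them. No column of either table was left out.

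TE was computed with DESeq2 1.42.0 size factors over the 8 libraries of mice A to D, with no pseudocount. Tests used edgeR 4.0.16 in R 4.3.3 (TMM, quasi-likelihood F-test, Benjamini-Hochberg adjustment over all genes, threshold 0.05) on genes that averaged 37 or more counts over the libraries of a test. SEs are the absolute log2 change divided by the square root of F. The change in TE was the interaction of library kind and treatment, in place of the study's RiboDiff. The procedures were tested on simulated counts with a small share of changed genes, a fixed spread and no effect of the mouse. That setting is simpler than these data, so it does not check the calls reported here. The remaining steps used Python 3.11.15, pandas 2.3.3 and matplotlib 3.10.9.

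The members, lists and tests were chosen with earlier results of these data known. Named genes are the 10 members, the 5 genes with the lowest vehicle TE after Map3k10, the 5 with the highest Pearson r with Map3k10 (log2 normalized count plus 1) and, of the cascade lists, up to 5 called genes in each direction of a comparison. Other cascade genes with the lowest TE of a list were named after their values were seen. A gene that this rule covers is not reported here.

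Mouse letters pair libraries of 1 animal, and the main tests left this pairing out. Differences between the mice of a group correlated between both kinds of library at 0.26 (A and B), 0.27 (C and D) and 0.57 (E and F) across genes. Alternatives were DESeq2, RLE scaling, other count minimums, exon counts, total-count scaling, a 2-fold limit, the mouse as a replicate block and leaving out each mouse or library.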

Additional observations from a re-analysis of the deposited data

How the results depend on the processing

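With 28 footprints of Map3k11 in each of mice C and D and 54 to 115 of Map3k10 in mice A to D, depth limits the footprint side of every ratio. Over the 523 member values recomputed under an alternative, 455 kept their direction and side of the threshold, or moved by less than the SD between mice. For TE without each mouse that outcome was fixed in advance, since leaving out 1 of 2 mice always moves the mean by less than their SD. Those values are among the 455 and give no support. A test value with no adjusted p-value was taken as not called in this count. In TE, Map3k10 stayed below its lowest relative under each alternative run, in mice A and B and in mice C and D. It was chosen as the lowest gene in mice A and B, so there this is a description and gives no support. Its distance was -1.71 with exon counts in the RNA-Seq denominator in the vehicle-treated mice, against -2.07 with CDS counts. With that denominator Map3k2 turned from positive to -0.86 (vehicle) and -0.74 (AZD-8055). The cause of these and the following changes was not tested.

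On the RiboTag IP, exon counts turned Map3k11 to -0.25 (-0.24 with the replicate block) and Map3k12 to -0.12 (-0.12 with the block). Members called higher in IP were 2 on CDS counts, 0 on exon counts, 1 with exon counts and the replicate block (an alternative chosen after seeing the data), 0 with a 2-fold limit and 1 to 3 without each library. The 1 that remained without the input of mouse E or of mouse F was Map3k10; Map3k12 then had adjusted p-values of 0.0719 and 0.0787 (edgeR). Map3k11 ranged from -0.026 to 0.25 without each library. With the mouse as a replicate block alone no call of a member changed in any comparison.

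Within mice C and D, 1 member was called higher at a mean of at least 100 counts, since Map3k2 was then not tested. A 2-fold limit left 1403 genes higher and 2032 lower there, and 2493 higher in the IP. Map3k5 turned to -0.083 without a filter on low counts and ranged from -0.042 to 0.16 without each library, and Map3k1 from -0.35 to 0.048.

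Counts of all genes changed after AZD-8055 moved widely. In TE, 9 genes were called higher and 93 lower. The higher calls became 19 with DESeq2, 23 without a filter, 31 with the mouse as a replicate block, 1 with a 2-fold limit and 1 to 7 without each mouse, and the lower calls became 35 with a 2-fold limit and 55 to 73 without each mouse. In RNA, with 7 higher and 11 lower, they became 30 and 48 without a filter, 21 lower with DESeq2, and 3 to 13 higher and 10 to 29 lower without each library. In footprints, with 5 higher and 105 lower, they became 13 higher with DESeq2, 21 higher at a mean of at least 100 counts, 60 and 204 without a filter, and 2 to 355 higher and 61 to 482 lower without each library, with the highest counts without mouse C. Under each of these alternatives 0 members were called.

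Member changes after AZD-8055 that crossed 0 were small and not called. In TE, Map3k5 turned to 0.0090 at a mean of at least 100 counts and Map3k12 to -0.038 without a filter. Without each mouse, TE changes ranged from -0.25 to 0.37 for Map3k1, -0.0019 to 0.40 for Map3k2, -0.0048 to 0.39 for Map3k4, -0.22 to 0.17 for Map3k5, -0.097 to 0.41 for Map3k11, -0.083 to 0.15 for Map3k12 and -0.15 to 0.064 for Map3k13. In RNA, Map3k3 turned to -0.0019 on exon counts. Without each library RNA changes ranged from -0.13 to 0.26 for Map3k1, -0.064 to 0.10 for Map3k3, -0.18 to 0.018 for Map3k5, -0.16 to 0.018 for Map3k9 and -0.0070 to 0.33 for Map3k13. In footprints, Map3k2 turned to -0.013 without a filter, and without each library changes ranged from -0.065 to 0.12 for Map3k2, -0.086 to 0.31 for Map3k4, -0.21 to 0.019 for Map3k5, -0.071 to 0.27 for Map3k9 and -0.030 to 0.22 for Map3k12.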
